A study of Mus musculus with 16 samples.

Results

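The seminal vesicle (SV) of wild type (WT) male mice was compared between 4 samples exposed to diethylstilbestrol as newborns (WT-DES) and 4 given vehicle (WT-veh), all collected at week 5. These 8 of the 16 samples of the series were taken by their labels, and 15800 of the 31274 genes in the expression table averaged over 1 FPKM in WT-veh or WT-DES and were tested, FPKM being the number of sequenced fragments per kilobase of transcript, scaled to the size of the library. Whether libraries were scaled further against each other is not given in the sources used here. Both groups were C57BL/6 pups of dams bought pregnant. WT-DES pups received 2 µg of DES in corn oil per day under the skin on days 1 to 5 of life, with the day of birth as day 1, and WT-veh pups the same volume of corn oil. The other 8 samples, αERKO-veh and αERKO-DES, came from mice of the same strain with a disrupted *Esr1*, bred from heterozygotes, under the same regime, and are used here only to set the change with DES beside that in WT. The study's methods describe RNA from 4 individual mice for WT-veh and from 3 pools of mice for WT-DES, whereas the series holds 4 WT-DES samples, so that a WT-DES sample may stand for several mice and p-values measure the spread between these samples.

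The SV is an androgen-dependent gland of the Wolffian duct, whose tall columnar epithelium fills the lumen with a few very abundant secretory proteins. It is wrapped in smooth muscle. DES is a synthetic oestrogen that binds oestrogen receptor α (ERα, the product of *Esr1*), a transcription factor of SV stroma and epithelium, and its genomic binding site, the oestrogen response element (ERE), is a palindrome of AGGTCA arms. Exposure in the neonatal window falls while the gland is still growing and branching, and week 5 is puberty in the mouse, when rising testosterone drives secretory differentiation.

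The sequences just upstream of 2 genes that DES raised, *Sprr2f* and *Ltf*, and of 2 secretory genes that it lowered, *Pbsn* and *Svs4*, are shown because the comparison turns on genes of these kinds. They are RefSeq promoters of GRCm38.p6, read 5′ to 3′ on the gene's strand in lower case, up to the base before the start of the gene in RefSeq or GENCODE M21, whichever comes first, with any AGGTCA, on either strand, in capitals.
*Sprr2f*, chr3:92364937-92365186, plus strand: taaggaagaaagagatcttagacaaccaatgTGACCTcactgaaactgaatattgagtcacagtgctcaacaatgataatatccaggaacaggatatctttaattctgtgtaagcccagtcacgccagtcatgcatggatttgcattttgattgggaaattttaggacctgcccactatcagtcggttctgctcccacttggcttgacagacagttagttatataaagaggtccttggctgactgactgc
*Ltf*, chr9:111019042-111019270, plus strand: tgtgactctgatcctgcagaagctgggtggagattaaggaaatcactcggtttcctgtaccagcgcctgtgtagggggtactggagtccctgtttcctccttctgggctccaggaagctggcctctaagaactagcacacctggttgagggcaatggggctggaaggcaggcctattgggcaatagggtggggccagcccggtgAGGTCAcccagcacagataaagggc
*Pbsn*, chrX:77853624-77853750, minus strand: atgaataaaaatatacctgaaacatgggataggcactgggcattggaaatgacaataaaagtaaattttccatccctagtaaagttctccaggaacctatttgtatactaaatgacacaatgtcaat
*Svs4*, chr2:164278460-164278557, minus strand: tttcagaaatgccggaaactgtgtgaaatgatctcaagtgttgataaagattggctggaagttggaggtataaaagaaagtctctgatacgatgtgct
The motif occurred once upstream of *Sprr2f* and once upstream of *Ltf*, and not in the windows of *Pbsn* and *Svs4*. In windows of 300 bases it was present in 16.3% of all 32851 RefSeq promoters, so its presence is a description of these letters and says nothing of binding.

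Read counts cannot be recovered from FPKM, so that sequencing depth is unknown here. Summed over all genes, FPKM came to 590446 to 652708 in WT-veh and 375207 to 437619 in WT-DES, while the upper quartile was 11.2 to 11.4 and 12.2 to 12.6. Pearson's r across the tested genes was 0.963 to 0.984 between WT-veh samples and 0.952 to 0.959 between WT-DES samples 2 to 4. WT-DES sample 1 stood apart, with r of 0.910 to 0.926 to the other WT-DES samples, and where it decided the call of a gene named below, or led a large rise, the value without it is given. WT-veh sample 4 held the most transcripts of skeletal muscle. In whole tissue, fewer cells of a type and less RNA per cell cannot be told apart.

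Neonatal DES altered a large part of the SV transcriptome. A gene was called differentially expressed (a DEG) when limma on log2(FPKM + 1) gave a Benjamini-Hochberg adjusted p no higher than 0.05 and its mean FPKM differed 1.5-fold or more. By this rule 4445 genes (28.1% of those tested) were higher and 3779 (23.9%) lower in WT-DES, 8224 in all (52.1%), and these shares are the background for every list as deposited. Of the tested genes 1583 passed the minimum through WT-DES alone and so had the higher mean there, and for lists with 3 or more such members the number higher is also given among members above 1 FPKM in WT-veh, where 3141 of 14217 genes were higher. The median log2 change over all tested genes was 0.00. Without WT-DES sample 1 the counts were 4642 higher and 3996 lower. Rescaling all samples to the same total without the 20 most abundant genes gave a median of 0.39 and a split of 6764 higher and 1804 lower among the 15951 genes then past the minimum. Quantile normalization gave 3485 higher and 3809 lower among 15716 genes. List counts under either scaling are to be set against the counts of that scaling. All log2 changes are differences of log2(FPKM + 1), which understate the change of genes with low FPKM, and SE is the standard error of such a difference. Values are FPKM, in the order of samples 1 to 4, or means ± SD over the 4 samples of a group. Within each list the members with the highest mean FPKM are named, and further members, such as exceptions to a list's direction, were chosen after their values had been seen.

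**Figure D1:**
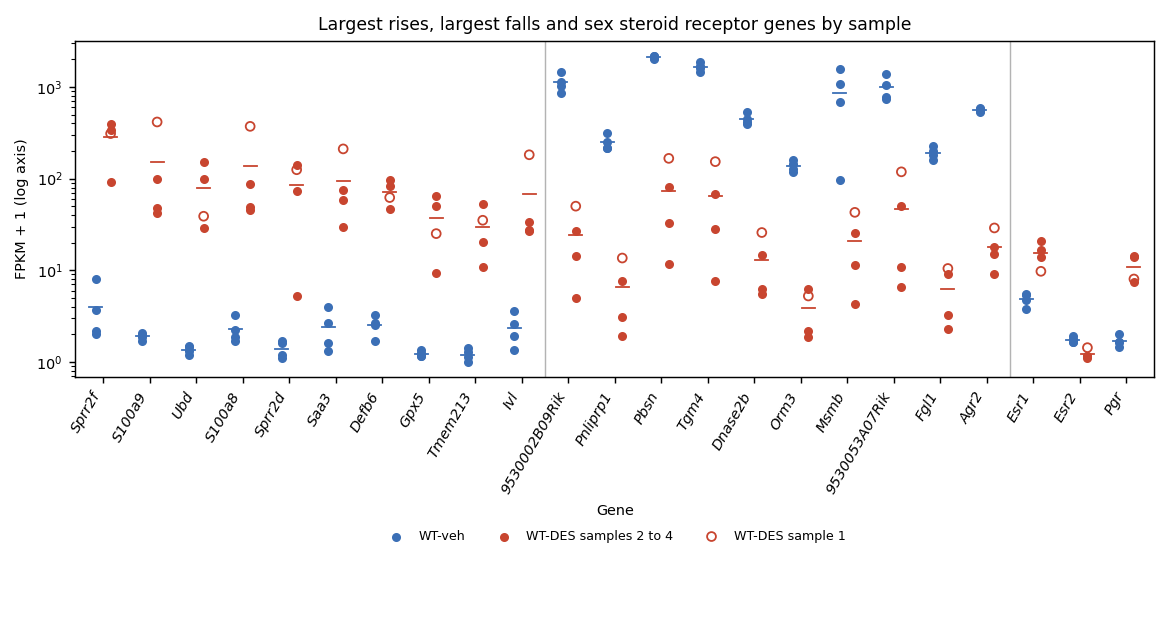
FPKM + 1 on a log axis of the 10 genes with the largest rise, the 10 with the largest fall and 3 sex steroid receptor genes in each of the 4 WT-veh samples (blue) and 4 WT-DES samples (red, with sample 1 as an open circle). Horizontal lines are group means. The 20 genes were chosen for having no overlap between the groups.

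The 10 largest rises were taken among DEGs that reached a mean FPKM of 10 in a group and whose samples did not overlap. Of these *S100a9*, *Ubd*, *Sprr2d*, *Gpx5* and *Tmem213* passed the minimum through WT-DES alone, so that their direction was fixed by it. *Sprr2f* (chromosome 3, 92365187 to 92366442, plus strand), which encodes a small proline-rich protein of the cornified envelope, had FPKM of 7.04, 1.04, 1.18 and 2.69 in the WT-veh samples and 309, 337, 90.4 and 394 in the WT-DES samples. Sample 3 was the lowest of the WT-DES samples, and the log2 change was 6.19 (SE 0.57, limma adjusted p = 2.65e-05). *Sprr2d* (chromosome 3, 92339140 to 92340873, plus strand) was at 0.39 ± 0.30 in WT-veh and at 124, 72.8, 4.27 and 139 in the WT-DES samples, with sample 3 far below the others. *Sprr2* genes are near-identical copies, and reads may have been split between them. *Ivl* (chromosome 3, 92570902 to 92573735, minus strand), encoding involucrin of the same envelope, was at 1.58, 0.35, 0.9 and 2.61 and at 181, 25.9, 26.8 and 32.3, highest in WT-DES sample 1, and its log2 change was 4.38 with that sample and 3.72 without it.

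*S100a9* (chromosome 3, 90692632 to 90695721, minus strand) and *S100a8* (chromosome 3, 90668978 to 90670035, plus strand) encode calprotectin, a major protein of neutrophils that stressed squamous epithelium also makes. *S100a9* was at 0.89, 0.71, 0.95 and 1.09 in WT-veh and 415, 41.4, 46.7 and 97.4 in WT-DES, and *S100a8* at 1.26 ± 0.70 and 371, 47.8, 44.7 and 85.5. Both were about 4 times higher in WT-DES sample 1 than in the next sample, and the log2 changes of 5.65 and 5.39 became 4.94 and 4.72 without sample 1. *Ubd* (chromosome 17, 37193892 to 37196095, plus strand), which encodes the interferon-inducible ubiquitin-like protein FAT10, was at 0.32, 0.44, 0.49 and 0.18 and 37.9, 149, 97.98 and 28.01, highest in samples 2 and 3, which gave a log2 change of 5.56 ± 0.48 (SE).

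*Saa3* (chromosome 7, 46711998 to 46715700, minus strand), an acute-phase serum amyloid, was at 1.41 ± 1.2 in WT-veh and 210.2, 28.4, 74.6 and 56.8 in WT-DES. The β-defensin gene *Defb6* (chromosome 8, 19225478 to 19228209, plus strand) had the smallest SE of the 10, at 1.52, 0.69, 2.24 and 1.68 and 61.2, 81.3, 95.3 and 45.4, which gave a log2 change of 4.81 ± 0.26 (SE, limma adjusted p = 2.46e-06). *Gpx5* (chromosome 13, 21286429 to 21292731, minus strand), a glutathione peroxidase known from the epididymis, was at 0.233 ± 0.091 and 24.1, 63.4, 49.4 and 8.37. *Tmem213* (chromosome 6, 38109255 to 38115809, plus strand) was at 0.203 ± 0.18 and 34.1, 52.3, 9.76 and 19.1. *Saa3* was highest in WT-DES sample 1 (log2 change 5.04, and 4.53 without it), *Gpx5* and *Tmem213* in sample 2. All 10 rises kept their call without WT-DES sample 1, which their selection for large changes without overlap made likely.

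The 10 largest falls were taken by the same rule. *Pbsn* (chromosome X, 77837901 to 77853623, minus strand), encoding probasin, a lipocalin under androgen control, was at 2179, 2060.5, 2161 and 2009.9 in WT-veh and 166, 31.9, 10.6 and 80.01 in WT-DES, and its log2 change was −5.46 (SE 0.71, limma adjusted p = 0.00018). *Tgm4* (chromosome 9, 123034726 to 123067561, plus strand), the transglutaminase that clots semen, was at 1856, 1679.6, 1594 and 1453 and 152, 27.4, 6.62 and 66.6, a log2 change of −5.41. In both genes WT-DES sample 1 kept the most transcript and sample 3 the least. *Msmb* (chromosome 14, 32142023 to 32158370, plus strand), encoding β-microseminoprotein, was uneven among the vehicle samples, at 689, 94.8, 1082 and 1586, and was at 41.9, 10.3, 3.31 and 24.8 in WT-DES, so that the lowest vehicle sample was only about 2 times the highest DES sample.

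*Agr2* (chromosome 12, 35992907 to 36004087, plus strand), a protein disulphide isomerase of secretory cells, was even in WT-veh at 549.7, 534, 576 and 596 and fell to 27.97, 14.1, 8.04 and 16.97, which gave a log2 change of −5.11 ± 0.30 (SE, limma adjusted p = 3.23e-06). The gene *9530002B09Rik* (chromosome 4, 122689275 to 122705129, plus strand) was at 1122 ± 259 and 23 ± 19.51, and *9530053A07Rik* (chromosome 7, 28129466 to 28164811, plus strand) at 989 ± 295 and 45.5 ± 51.9. *Pnliprp1* (chromosome 19, 58728887 to 58744169, plus strand), a pancreatic lipase relative, went from 248 ± 46.3 to 5.55 ± 5.3, *Dnase2b* (chromosome 3, 146580985 to 146615596, minus strand), an acid endonuclease, from 445 ± 61.3 to 12.1 ± 9.5, *Orm3* (chromosome 4, 63356162 to 63359511, plus strand), an α1-acid glycoprotein, from 136 ± 19.2 to 2.88 ± 2.2, and *Fgl1* (chromosome 8, 41191434 to 41215156, minus strand), a fibrinogen-like protein, from 191 ± 30.2 to 5.25 ± 4.1. Each of the 10 falls kept its call without WT-DES sample 1, which the same selection made likely.

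*Pgr* and *Esr1* rose. *Pgr* (chromosome 9, 8899833 to 8968611, plus strand), the progesterone receptor gene and a known ERα target, was at 0.66, 1, 0.64 and 0.44 in WT-veh and 7.03, 13.3, 6.4 and 12.8 in WT-DES (log2 change 2.64, SE 0.24). It passed the minimum through WT-DES alone, so that its higher mean there was fixed by the minimum. *Esr1* (chromosome 10, 4611593 to 5005614, plus strand) was at 4.43, 4.55, 3.7 and 2.81 and 8.74, 19.6, 12.99 and 15.7, which gave a log2 change of 1.61 ± 0.23 (SE, limma adjusted p = 0.000311). *Esr2* (chromosome 12, 76120419 to 76177259, minus strand), for ERβ, was below the minimum and not tested, at 0.64, 0.64, 0.77 and 0.94 and 0.43, 0.17, 0.16 and 0.09. Of the 5 tested steroid receptor genes 4 were higher, among them *Nr3c1*, the glucocorticoid receptor gene, which had the highest level at 10.2 ± 1.7 in WT-veh and 27.2 ± 1.9 in WT-DES (log2 change 1.34). The fourth, *Nr3c2*, the mineralocorticoid receptor gene, changed by 0.54 as deposited and by 0.05, not called, under quantile normalization, where 1 receptor gene was lower. The membrane receptor gene *Gper1* was not called, at 1.05 ± 0.19 and 1.14 ± 0.16.

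Genes known to answer to each hormone were then read as lists. Of 11 androgen-responsive genes 8 were lower and 3 higher in WT-DES, with a median log2 change of −1.53. *Sord*, for the sorbitol dehydrogenase that makes seminal fructose, went from 177 ± 26.3 to 40.2 ± 15.4 (log2 change −2.17). *Azgp1* had a log2 change of −5.10. The 3 that rose were *Aldh1a3*, a retinaldehyde dehydrogenase (4.72 ± 0.60 to 43.9 ± 12.1), *Ndrg1* (16.2 ± 1.6 to 57.5 ± 7.3) and the metalloreductase gene *Steap4* (13.7 ± 0.72 to 35.4 ± 15.8). Of 13 tested genes that oestrogen induces in uterus or vagina 10 were higher, with a median of 1.96, and *Agr2* was lower. Among the 9 above 1 FPKM in WT-veh 6 were higher. *Ltf*, for lactoferrin, was at 7.9, 5.68, 9.99 and 10.5 in WT-veh and 167, 185, 221 and 193 in WT-DES, a log2 change of 4.36, and *C3*, for complement C3, was at 24.6, 11.4, 15.02 and 18.5 and 233, 242, 194 and 221, a log2 change of 3.65. Both were even across the WT-DES samples, sample 1 included. *Sprr2a1* and *Lcn2*, the lipocalin that binds siderophores, were already high in WT-veh at 205 ± 55.9 and 161 ± 15 and reached 555 ± 379 and 359 ± 174, and *Sprr2a1* was not called without WT-veh sample 3 (log2 change 1.13). The log2 changes of *Sprr2a1* and *Lcn2* were 1.26 and 1.05, and 0.86 and 0.76 without WT-DES sample 1. *Aqp5* and *Clca3*, the others tested, were not called, though *Clca3* was without WT-DES sample 1 (1.75).

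Of 8 tested genes of steroid-converting enzymes 3 were higher and 1 was lower, and the median log2 change was 0.02. *Srd5a1*, for 5α-reductase type 1, was at 7.06, 5.73, 6.35 and 8.12 and 72.98, 11.8, 15.3 and 16.01, with WT-DES sample 1 far above the rest (log2 change 1.54, and 0.97 without it), and *Srd5a2*, for type 2, the form that makes dihydrotestosterone in the male tract, was at 10.2, 12.1, 9.58 and 10.9 and 2.56, 6.18, 10.1 and 7.03 and was not called (limma adjusted p = 0.0527). The other rises were *Akr1c14* and *Hsd17b2*, the second led by WT-DES sample 1 (log2 change 1.98, and 1.11 without it). At an adjusted p of at most 0.01, or without WT-veh sample 2 or 3, the number higher was 1, and without WT-DES sample 3 the number lower was 2. *Hsd17b10* was the 1 lower gene, at 153 ± 16.03 and 99.4 ± 3.9, a log2 change of −0.61 that was 0.04 under quantile normalization and −0.56, not called, without WT-veh sample 4. The aromatase gene *Cyp19a1* was below the minimum.

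**Figure D2:**
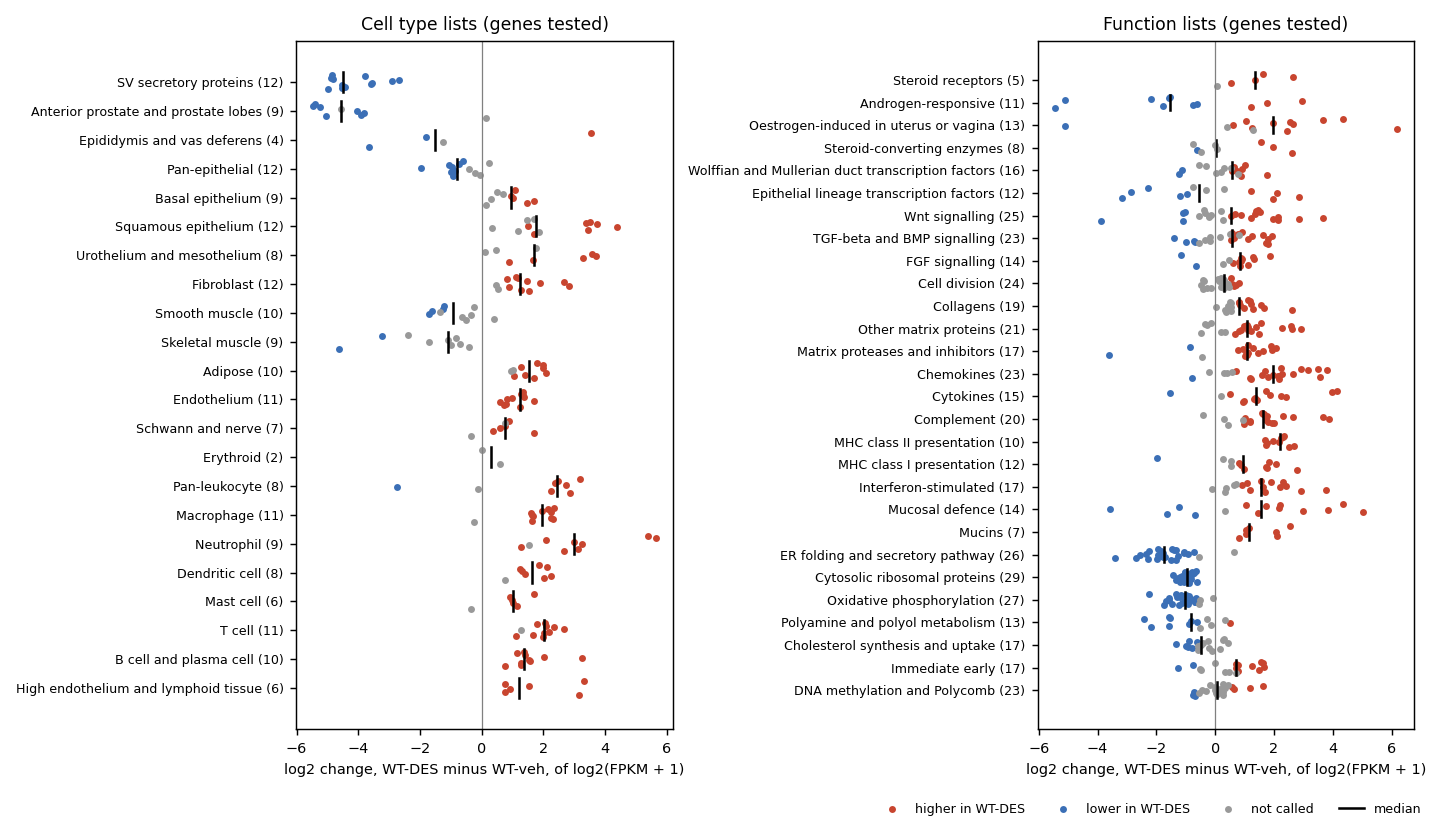
Log2 change of every tested member of 22 cell type lists (left) and 28 function lists (right), WT-DES minus WT-veh, with the number tested in brackets. Points are genes, red where higher in WT-DES, blue where lower and grey where not called, and black bars are list medians, which run from −4.55 for prostate lobes to 2.99 for neutrophil genes. Of the 9 neutrophil genes 6 passed the minimum through WT-DES alone.

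The secretory genes of the gland fell. All 12 SV secretory genes were lower, with log2 changes of −4.98 to −2.68 and a median of −4.49. *Svs5* went from 10817 ± 862 to 1557 ± 629.5 FPKM and *Svs2*, for semenogelin-like clotting protein, from 9065 ± 753 to 755 ± 439. *Svs4* was at 10445, 10901, 10074 and 9914 in WT-veh and 2002, 771, 1766 and 2476 in WT-DES, lowest in sample 2, which gave a log2 change of −2.68 ± 0.35 (SE, limma adjusted p = 0.000177). It was the least reduced of the list and the 1 member that lost its call under quantile normalization, where its change was −0.56 and 11 of 12 were lower. *Svs3a* and *Svs3b* are near-identical neighbours, at 3834 ± 194 and 3684 ± 207 in WT-veh, and their reads may have been shared. The mean of the list relative to WT-veh was −3.10, −5.20, −4.87 and −3.35 on the log2 scale in WT-DES samples 1 to 4, against −0.08 to 0.10 in WT-veh, so that samples 2 and 3 had lost the most.

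Genes of the prostate lobes, the anterior of which lies against the SV, fell too. Of 9 tested 7 were lower, with a median of −4.55, and *Defb50* went from 1284 ± 550.3 to 81.1 ± 26.7. *Sbp*, for spermine-binding protein, was at 58.8, 2.59, 2057 and 4368 in WT-veh and 17.6, 5.38, 2.47 and 14.4 in WT-DES and did not pass (log2 change −4.55, limma adjusted p = 0.0786), and it passed without WT-veh sample 2 (−6.51). *Tmprss2*, the other member not called, was at 67.1, 57.7, 56.3 and 57.2 and 187, 41.1, 50.5 and 47.9, highest in WT-DES sample 1. In αERKO the list had a median change with DES of −0.19, and 2 of the 9, *Msmb* (−3.69) and *Defb50* (−1.74), were lower there at a limma adjusted p of 0.0435 and 0.0373, against 357 of the 15800 genes at 0.05 or less in either direction. Whether traces of prostate in the vehicle samples had a part in these falls was not tested. Only 4 of 10 epididymis and vas deferens genes were above the minimum, and the epididymal genes *Lcn9* and *Spint4* were listed at 0 in all 8 samples. *Akr1b7*, which the vas deferens makes in large amounts, was at 529, 530.4, 695 and 845 and 19.8, 70.8, 192 and 22.4. *Crisp1* was at 398, 316, 489.6 and 519 and 66.2, 361, 246 and 36.7, and its call (limma adjusted p = 0.0398) was lost in 6 of the 8 fits that left out a sample, such as that without WT-DES sample 1 (log2 change −1.50), leaving 1 member lower in each. *Cst11*, for a cystatin, was at 0.412 ± 0.31 and 16.97 ± 8.7.

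Genes that serve secretion in every cell fell with the secretory genes. Of 26 genes of endoplasmic reticulum (ER) folding and translocation 24 were lower, with a median of −1.73, and the 2 not called were *Sel1l*, which was called without WT-DES sample 1 (−0.58), and *Creb3l1*, the second at 7.56 ± 1.8 and 12.9 ± 6.1. *Ssr4*, of the translocon-associated complex, went from 887 ± 47.97 to 149 ± 14.1, *Calr*, for the chaperone calreticulin, from 699 ± 74.8 to 194 ± 13.5, and *Ssr2* from 557 ± 39.2 to 145 ± 15.5. *Hspa5*, for the chaperone BiP, was at 560.2, 613, 611 and 599.9 in WT-veh and 162, 139, 150.4 and 167 in WT-DES (log2 change −1.94, SE 0.08, limma adjusted p = 1.04e-06), even in both groups. Under quantile normalization 20 of the 26 were lower. All 29 cytosolic ribosomal protein genes were lower, with a median of −0.97, but this call depends on the scaling: with equal totals without the 20 most abundant genes 11 were lower, and under quantile normalization 10 were lower and 1 higher. *Rps9* and *Rpl8* had changes of −0.98 and −1.03 as deposited and of 0.57 and 0.28 under quantile normalization. Ribosomal protein genes have many processed pseudogenes that can take reads.

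Of 27 oxidative phosphorylation genes 24 were lower, with a median of −1.04, which became 14 with equal totals without the 20 most abundant genes and 7 under quantile normalization. *Cox4i1*, of complex IV, went from 764 ± 62.9 to 373 ± 47.4 and *Atp5e*, of the ATP synthase, from 810.2 ± 60.6 to 295 ± 34.01. *Ndufa4* had a log2 change of −1.15, and *Atp5b* of −0.93 as deposited and 0.02 under quantile normalization. *Atp5a1*, *Uqcrc2* and *Sdha* were not called, though *Atp5a1* was without WT-DES sample 1 (−0.60). Of 13 polyamine and polyol genes 8 were lower and 1 higher, and 5 lower with equal totals without the 20 most abundant genes. *Srm*, for spermidine synthase, went from 161 ± 14.9 to 30.2 ± 8.1 and *Oaz1*, for the antizyme that restrains polyamine synthesis, from 81.96 ± 8.5 to 43.7 ± 3.6, whereas the catabolic gene *Sat1* was at 99.8 ± 5.4 and 127 ± 9.4 and was not called. The 1 rise, *Paox*, had a log2 change of 0.49 and was not called without WT-DES sample 2, WT-veh sample 1 or WT-veh sample 2. Of 17 cholesterol genes 6 were lower, and 10 without WT-DES sample 1, whereas with equal totals without the 20 most abundant genes 1 was lower and 2 were higher (median −0.05). *Srebf2*, the master regulator, was not called at −0.59 and was called without WT-DES sample 1 (−0.80) or WT-veh sample 3 (−0.62), and *Sc5d* had a log2 change of −0.79.

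Some basal and squamous genes rose, while most pan-epithelial genes were lower in the values as deposited. Of 12 pan-epithelial genes 8 were lower as deposited, with a median of −0.80, but 3 with equal totals without the 20 most abundant genes and 2 under quantile normalization, where the median was −0.09. The simple keratin genes *Krt18* and *Krt19* went from 516 ± 31.6 to 254 ± 85.8 and from 454 ± 32.04 to 234 ± 38.1. *Cldn3*, a tight junction gene, went from 415 ± 33.9 to 116 ± 48.6 and was lower under quantile normalization as well (−1.19, limma adjusted p = 0.0356). *Cdh1*, for E-cadherin, was at 75.5, 74.1, 62.1 and 70.8 in WT-veh and 84.4, 98.5, 78.2 and 75.3 in WT-DES and was not called. Of 9 basal genes 5 were higher, and 3 at an adjusted p of at most 0.01. *Trp63*, the transcription factor gene of basal cells, was at 11.1, 12.9, 10.5 and 9.85 and 33.3, 21.7, 19.1 and 20.9 (log2 change 1.01, SE 0.17, limma adjusted p = 0.00074), and *Krt5* at 52.1, 69.1, 58.8 and 64.8 and 208, 130.3, 67.7 and 152, where 1 WT-DES sample overlapped the vehicle range. *Krt15* and *Krt14* were not called, at 82.7 ± 23.5 and 142 ± 68.8 and at 50.1 ± 4.7 and 84.2 ± 62.2, though *Krt15* was without WT-DES sample 4 (0.97) and under quantile normalization (1.33).

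Of 12 genes of squamous epithelium 7 were higher, with a median of 1.77, and 3 of the 5 above 1 FPKM in WT-veh. *Sprr1a*, another cornified envelope gene, was at 40.5, 11.04, 19.97 and 68.6 and 832, 219, 159.8 and 352 (log2 change 3.45, and 2.99 without WT-DES sample 1), and *Krt4*, a keratin gene of inner stratified epithelia, at 3.38, 3.35, 3.58 and 18.4 and 51.6, 60.5, 62.2 and 98.1. *Krt13*, its partner, was near 0 in WT-veh at 0.17, 0.04, 0.16 and 0.2 and was at 2.56, 14.5, 2.39 and 150.3 in WT-DES, with 1 sample far above the others. *Sprr3* and *Sprr1b* stood at 0 in each vehicle sample and were at 0.18, 1.79, 0 and 49.7 and 0.15, 0.77, 0 and 11.7 in WT-DES, without passing the test. The mean of the list was 1.85, 2.09, 1.24 and 4.21 above that of WT-veh in WT-DES samples 1 to 4, highest in sample 4. Among 8 urothelial and mesothelial genes 5 were higher. The uroplakin genes were led by WT-DES sample 1: *Upk1a* was at 37.5, 15.2, 33.8 and 76.5 and 672, 43.1, 103 and 70.6, *Upk1b* at 73.8, 59.2, 64.8 and 69.1 and 399, 35, 78.6 and 63.1 and *Upk3a* at 9.68, 1.53, 3.63 and 15 and 501, 18.1, 68.9 and 62.6. Of these *Upk3a* was called (log2 change 3.59, and 2.71 without WT-DES sample 1), and *Upk1a* was called without WT-DES sample 2 (2.25), while without WT-DES sample 1 *Upk1b* changed by −0.25 and *Upk2* by −0.74 in place of 0.46 and 0.12. The mesothelial gene *Msln* was at 0.32, 0.23, 0.17 and 0.61 and 14.99, 19.2, 6.82 and 10.01, and passed the minimum through WT-DES alone. The part of bladder or serosal tissue in these values was not tested.

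Lineage transcription factors moved in both directions. Of 12 tested 5 were lower and 4 higher, against 23.9% and 28.1% of all tested genes. *Gata2*, for a zinc finger transcription factor, went from 323 ± 68.5 to 64.7 ± 12.8 and *Elf5*, a factor of secretory alveoli, from 294 ± 32.4 to 49.7 ± 36.1. *Grhl2* had a log2 change of −1.21, while the pioneer factor gene *Foxa1* was at 35.3, 36.7, 32.5 and 43.6 and 48.6, 16.4, 16.1 and 15.4, not called with WT-DES sample 1 and called without it (−1.15). The other 2 falls were *Spdef* (−3.17), of secretory cells, and *Grhl1* (−0.95), and the rises were *Klf5* (2.10), *Grhl3* (2.85, and 2.07 without WT-DES sample 1), *Sox17* (1.23) and *Foxj1* (1.95), of which *Grhl3* is known for epidermal barrier formation and *Foxj1* for ciliated cells. Of 16 duct transcription factor genes 7 were higher and 2 lower, with a median of 0.56, and the number higher was 11 with equal totals without the 20 most abundant genes and 4 under quantile normalization. *Gata3*, needed for Wolffian duct formation, was at 116, 131, 108 and 110.1 and 61.1, 40.9, 46.5 and 46.6 (log2 change −1.25), and *Hoxd9* at 45.4 ± 1.6 and 20.6 ± 3.5. The mesenchymal factor gene *Tcf21* rose from 33.4 ± 2.4 to 115 ± 5.9. *Hoxa10* was at 25.9 ± 1.5 and 32.5 ± 5.0 and was not called, and *Lhx1* was not tested.

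Most genes of fibroblasts and matrix were higher. Of 12 fibroblast genes 10 were higher, with a median of 1.23, and the 2 not called, *Dpt* and *Thy1*, had a ratio of means under 1.5, though *Thy1* was called without WT-DES sample 1 (0.64). *Dcn*, for decorin, was at 281, 230.03, 257 and 251 in WT-veh and 735, 738, 715 and 652 in WT-DES, which gave a log2 change of 1.48 ± 0.09 (SE, limma adjusted p = 3.23e-06). *Col3a1*, *Col1a2* and *Col1a1*, for the fibrillar collagens, had log2 changes of 0.81, 1.17 and 1.12. Relative to WT-veh the list mean was 1.52, 1.34, 1.37 and 1.33 in the 4 WT-DES samples, close to each other and with sample 1 among them. Of 19 collagen genes 11 were higher, with *Col6a1* at 109.8 ± 8.9 and 197 ± 13.9, and 18 with equal totals without the 20 most abundant genes. Of 21 other matrix genes 15 were higher. *Mgp*, for matrix Gla protein, went from 494 ± 23.5 to 789 ± 116, and its ratio was below 1.5 without WT-DES sample 1 (log2 change 0.57). *Bgn* was at 250.5 ± 21.7 and 319 ± 53.3, *Mfap4* rose from 106 ± 21.7 to 184 ± 25.5, and *Sparc* was at 676 ± 49.7 and 612 ± 43.7, not called as deposited (−0.14) and higher under quantile normalization (1.07).

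Among 17 matrix protease and inhibitor genes 14 were higher and 2 lower. *Mmp2*, for gelatinase A, rose from 83.8 ± 6.0 to 182 ± 22.6 and *Timp2* from 79.7 ± 4.5 to 172 ± 30.2, whereas *Timp1* was at 447, 369, 399.7 and 404 in WT-veh and 48.6, 20.6, 21.3 and 50.8 in WT-DES, which gave a log2 change of −3.60 ± 0.30 (SE, limma adjusted p = 1.75e-05). *Mmp7*, for matrilysin, was the other lower gene, at 234 ± 34.9 and 140.2 ± 73.3, and was not called when WT-DES sample 3 or 4 or any of the WT-veh samples was left out.

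Muscle, fat, vessels and nerve did not move together. Of 10 smooth muscle genes 4 were lower with all samples (1 at an adjusted p of at most 0.01), and 9 without WT-DES sample 1, while these calls were lost under quantile normalization, where the median was −0.15. *Acta2*, for smooth muscle actin, was at 599, 681, 576 and 615 and 445, 180.3, 229 and 261, *Tagln* at 1095, 1186, 1001 and 1001 and 981, 294, 358 and 406, and *Actg2*, for enteric actin, at 458, 597, 413 and 466 and 642, 56.3, 86.7 and 137. WT-DES sample 1 thus lay near or above the vehicle values and the other WT-DES samples below them, and *Actg2* lost its call when any sample other than WT-DES sample 1 was left out. *Cnn1*, for calponin, had a log2 change of −1.60. Of 9 skeletal muscle genes 2 were lower, a share near the 23.9% of all tested genes. They were *Acta1* (530.1, 577, 483 and 705 to 235, 24.9, 43.1 and 48.95) and *Tnnc2* (163, 178, 182 and 390.2 to 9.34, 3.37, 8.12 and 12.7). *Ckm* was at 32.8, 32.7, 47.2 and 273 and 80.2, 1.82, 5.27 and 13.2 and was called without WT-DES sample 1 (−3.30). *Mylpf* was at 6.48, 2.48, 17.7 and 307 in WT-veh, where sample 4 held nearly all of the mean.

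Of 10 adipose genes 8 were higher, with a median of 1.55, and 2 at an adjusted p of at most 0.01. *Fabp4*, for the fatty acid binding protein of fat cells, was at 256, 95.8, 373 and 494 and 564, 528, 344 and 761 and *Cfd*, for adipsin, at 303, 93.8, 275 and 432 and 389.6, 495, 341 and 750.1. The ranges overlapped and neither was called, though both were without WT-veh sample 4 (1.33 and 1.24). *Car3* rose from 116 ± 67.4 to 341 ± 114. *Retn*, for resistin, had a log2 change of 1.39 and lost its call in 5 of the 8 fits that left out a sample. In αERKO the same list had a median change of −2.99, and the part of attached fat was not tested. All 11 endothelial genes were higher, with log2 changes of 0.60 to 1.70, and this held without WT-DES sample 1. *Pecam1*, for CD31, was at 25.99, 22.99, 21.9 and 24.8 and 50.05, 66.5, 59.1 and 74.7, *Egfl7* at 37.95 ± 5.6 and 67.2 ± 11.3 and *Cldn5* at 25.2 ± 5.5 and 61.3 ± 13.5. Of 7 nerve genes 5 were higher, and 3 without WT-veh sample 1 or 3 or under quantile normalization. *Mbp*, for myelin basic protein, had a change of 0.59 that was not called without WT-DES sample 3, WT-veh sample 1 or WT-veh sample 3. *Sox10*, of glial cells, was at 3.98, 3.77, 5.14 and 11.8 and 6.05, 10.1, 14.7 and 11.2 and was called without WT-DES sample 1 (0.97) or WT-veh sample 4 (1.07). Neither of the 2 erythroid genes tested was called, with *Hba-a2* at 297 ± 75.95 and 312 ± 115, and *Alas2* was called without WT-DES sample 1 (1.00).

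**Figure D3:**
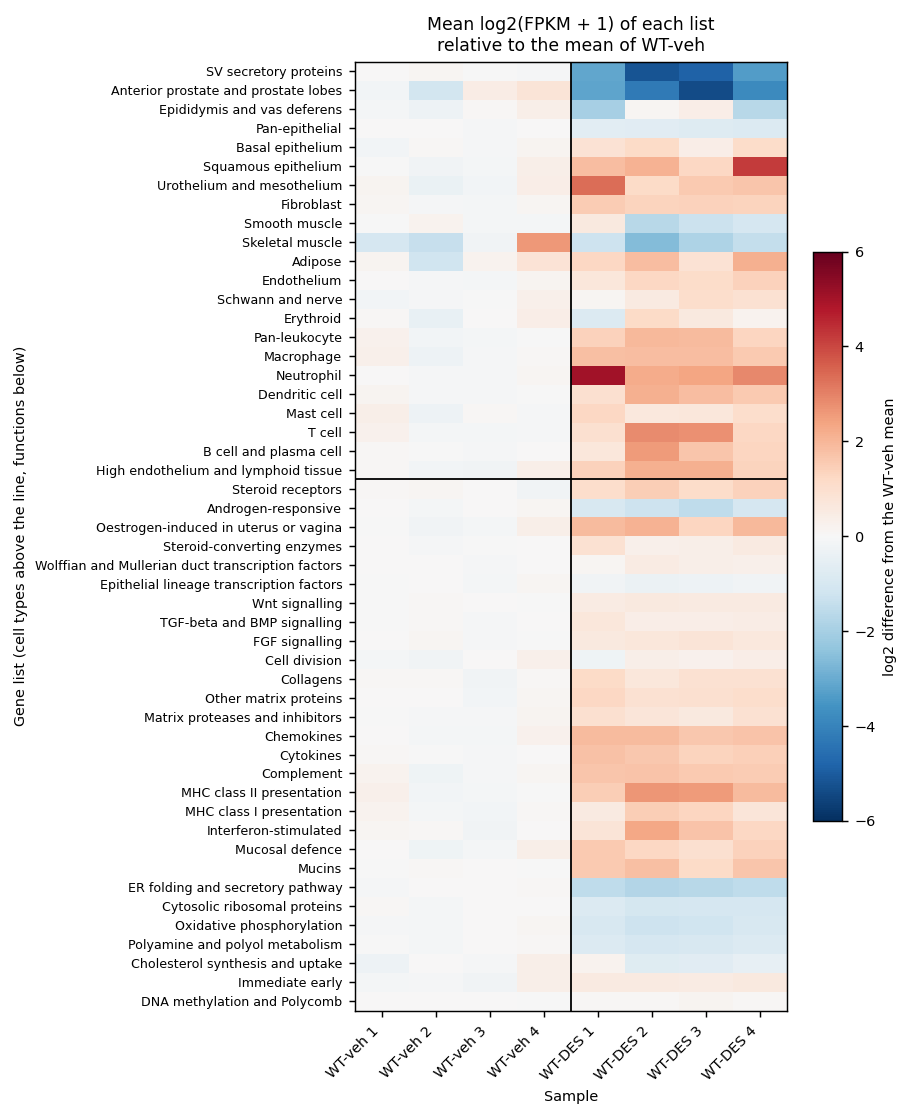
Mean log2(FPKM + 1) of the tested members of each of 50 lists in each sample, as the difference from the mean of the 4 WT-veh samples (red above, blue below). Cell type lists are above the horizontal line, and the differences run from −5.36 (prostate lobes, WT-DES sample 3) to 5.02 (neutrophil, WT-DES sample 1).

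Most leukocyte genes were higher. The mean of the pan-leukocyte list was 1.37, 1.94, 1.91 and 1.29 above WT-veh in WT-DES samples 1 to 4. Of 8 pan-leukocyte genes 6 were higher and 1 lower. *Ptprc*, for the leukocyte antigen CD45, was at 3.8, 2.53, 2.16 and 1.77 in WT-veh and 22.1, 43.5, 41.7 and 21.53 in WT-DES, which gave a log2 change of 3.18 ± 0.28 (SE, limma adjusted p = 2.03e-05). *Coro1a*, for the leukocyte coronin, rose from 14.5 ± 3.1 to 86.4 ± 23.5 and *Laptm5* from 13.1 ± 2.5 to 73.6 ± 19.4. The exceptions were *Lcp1*, at 73.7 ± 6.2 and 67.4 ± 8.3, and *Cd52*, which male duct epithelium makes as well and which fell from 2919 ± 78.03 to 452 ± 121. Of 11 macrophage genes 10 were higher, with a median of 1.97, and *Mertk* was not called. The C1q genes *C1qa*, *C1qb* and *C1qc* rose together by 1.60, 1.62 and 1.66, and *Csf1r*, the receptor gene that macrophages need for survival, was at 14.6, 8.47, 9.63 and 12.2 and 44.6, 61.7, 66.01 and 41.1. The macrophage mean was 1.79, 1.86, 1.85 and 1.59 above WT-veh in WT-DES samples 1 to 4.

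Neutrophil genes were uneven. All 9 tested but *Mmp8* were called higher, with a median of 2.99, and 8 were higher without WT-DES sample 1. Of the 9, 6 passed the minimum through WT-DES alone, and the other 3 were higher. The list mean was 5.02, 2.21, 2.35 and 2.86 above WT-veh in samples 1 to 4, so that sample 1 led. *Retnlg* was at 1.25, 1.51, 1.04 and 1.59 and 78.1, 12.1, 5.99 and 31.4, and *Csf3r*, for the receptor of the neutrophil growth factor, at 0.32, 0.29, 0.27 and 0.35 and 29.4, 5.21, 6.62 and 7.19. Without WT-DES sample 1 their log2 changes of 3.24 and 2.99 became 2.62 and 2.48. *Mmp9* had a change of 1.28 that was 0.85 without that sample and was not called without WT-veh sample 3. Of 8 dendritic cell genes 7 were higher, and *Batf3* was the 1 not called, at 6.37, 4.85, 6.06 and 5.97 and 4.66, 16.7, 12.5 and 11.7, except without WT-DES sample 1 (1.09). Of the 4 above 1 FPKM in WT-veh 3 were higher. *Itgax*, for CD11c, was at 1.8, 1.54, 1.15 and 1.09 and 6.09, 14.9, 11.8 and 6.77, and *Cd209a* at 1.17 ± 0.40 and 9.92 ± 4.2. Of 6 mast cell genes 5 were higher, and 3 under quantile normalization. *Kit*, the stem cell factor receptor gene, rose from 2.53 ± 0.53 to 10.5 ± 1.8, and *Cma1*, for chymase, from 2.91 ± 1.3 to 7.47 ± 1.7. *Hdc*, for the histamine-forming enzyme, was at 6.26, 6.06, 6.27 and 6.3 and 18.6, 2.36, 2.05 and 4.09, and was lower without WT-DES sample 1 (−0.95).

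Lymphocyte genes were low in WT-veh. Of 11 T cell genes 10 were higher, with a median of 2.02, and *Cd8a* was not called, except without WT-DES sample 1 (1.77). All 5 T cell genes above 1 FPKM in WT-veh were higher. *Cd3g*, of the T cell receptor complex, was at 4.07, 2.35, 2.9 and 2.21 and 7.2, 31.6, 26.8 and 8.72, the kinase gene *Lck* at 4.16, 2.42, 2.34 and 2.81 and 6.46, 28.9, 28.4 and 8.26, and *Cd4* at 0.55, 0.37, 0.43 and 0.65 and 3.26, 15.4, 17.4 and 5.42. In each of the 3 genes samples 1 and 4 were the lower WT-DES values. The 10 B cell and plasma cell genes tested all passed the minimum through WT-DES alone, so that a higher mean there was fixed by the minimum. No member was above 1 FPKM in WT-veh, and the values that follow are a description. Their FPKM summed to 2.43 to 3.38 in WT-veh and 12.2 to 94.2 in WT-DES. *Igj*, for the joining chain of secreted antibodies, was at 0.74, 0.19, 0.22 and 0.33 and 3.37, 40.98, 7.21 and 18.4, and *Cd79b*, of the B cell receptor, at 0.57, 0.83, 0.72 and 0.94 and 2.35, 15.8, 8.5 and 3.78. All 6 tested genes of high endothelium and lymphoid tissue were higher, 3 of which passed through WT-DES alone, though 3 without WT-DES sample 2 or 3 or under quantile normalization, and *Ccl19*, for a chemokine that guides T cells and dendritic cells, lost its call in 6 of the 8 fits that left out a sample. *Glycam1*, for a ligand of L-selectin on high endothelial venules, stood at 0 in each vehicle sample and was at 10.4, 11.8, 15.1 and 3.27 in WT-DES. *Ltb*, for lymphotoxin β, was at 3.47, 1.49, 1.35 and 2 and 18.1, 41.8, 35.1 and 16.4, and *Cxcl13*, for the chemokine of B cell follicles, at 1.47, 1.2, 1.17 and 4.39 and 5.43, 9.45, 10.5 and 4.71.

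Most chemokine, cytokine and complement genes were higher as well. Of 23 chemokine genes 18 were higher, with a median of 1.96, and *Ccl11*, for eotaxin, was lower (46.4 ± 2.7 to 27.3 ± 9.0). This fall was not called under quantile normalization or with equal totals without the 20 most abundant genes. Among the 16 above 1 FPKM in WT-veh 12 were higher. *Cxcl12*, of stromal cells, rose from 94.03 ± 2.7 to 316 ± 79.1, *Cxcl14* from 62.7 ± 3.2 to 108 ± 34.2, and *Ccl8*, for a monocyte chemokine, was at 12.1, 4.82, 8.8 and 12.3 and 69.7, 134, 125 and 159.7. *Cxcl16* was not called. Of 15 cytokine genes 13 were higher, and 5 of the 7 above 1 FPKM in WT-veh. *Il1b* was at 0.3, 0.53, 0.23 and 0.51 and 66.99, 16.6, 16.5 and 16.1 (log2 change 4.14, and 3.65 without WT-DES sample 1), *Il33*, an alarmin, at 7.65, 7.5, 6.51 and 8.14 and 22.3, 41.3, 15.6 and 52.2, and *Csf1*, the macrophage growth factor gene, at 10.4, 10.04, 9.59 and 9.89 and 27.9, 29.6, 24.4 and 23.9. *Il15* was the 1 lower cytokine gene, at 41.1, 36.9, 42.1 and 31.6 and 10.3, 12.98, 13.02 and 13.2. Of 20 complement genes 16 were higher. *Serping1*, for the C1 inhibitor, rose from 134 ± 12.6 to 308 ± 25.6, and *Cfb*, for factor B of the alternative pathway, was at 4.23, 2.87, 3.19 and 4.32 and 64.1, 85.9, 72.1 and 47.5 (log2 change 3.86).

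All 10 genes of major histocompatibility complex (MHC) class II presentation were higher, with log2 changes of 1.68 to 2.69 and a median of 2.21, among them all 7 above 1 FPKM in WT-veh. *Cd74*, the invariant chain gene, was at 269, 172, 153 and 189 and 456, 791, 819.6 and 543, *H2-Aa* at 121, 67.3, 71.2 and 80.2 and 266, 552, 574 and 375, and *H2-Ab1* had a log2 change of 2.32. Of 12 class I genes 8 were higher and 1 lower. That gene was *B2m*, for the class I light chain, whose FPKM was 3054, 3012, 2916 and 2707 in WT-veh and 605, 788, 872 and 706 in WT-DES, which gave a log2 change of −1.99 ± 0.14 (SE, limma adjusted p = 6.89e-06) that was −0.24 and not called under quantile normalization. The heavy chain genes *H2-K1* and *H2-D1* were at 308 ± 42.5 and 376 ± 94.4 and at 268 ± 34.7 and 389 ± 87.6, not called, though *H2-D1* was called without WT-DES sample 1, WT-DES sample 4 or WT-veh sample 1 (0.59 to 0.62). *Tapbp* was not called and was called in 4 such fits (0.53 with all samples, 0.57 to 0.66 in those fits). Under quantile normalization 11 of the 12 class I genes were higher, all but *B2m*. With equal totals without the 20 most abundant genes 11 were higher and 1 lower. Of 17 interferon-stimulated genes 12 were higher. *Gbp2* was at 7.15, 6.67, 5.4 and 7.26 and 84.04, 169.9, 112 and 66.3 (log2 change 3.76) and *Irf7* at 18.3, 15.6, 12.4 and 17.8 and 26.3, 97.5, 71.5 and 36.5, each with its highest value in sample 2 or 3 of WT-DES. *Isg15*, for a ubiquitin-like modifier, had a change of 1.09 and lost its call without WT-DES sample 3, WT-veh sample 2 or WT-veh sample 3. *Bst2* was not called, at 119.6 ± 14.4 and 152 ± 35.6.

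Mucosal defence genes changed in both directions. Of 14 tested 9 were higher and 4 lower, and *Bpifa1* was listed at 0 in all 8 samples. *Lyz2*, the lysozyme gene of macrophages, rose from 83.98 ± 20.97 to 375 ± 52.1, whereas *Lyz1*, a near copy known from Paneth cells, went from 27.1 ± 2.4 to 11.5 ± 4.0, and reads may have been shared between them. *Defb1*, a β-defensin of columnar epithelium, was at 257, 191, 276 and 327 and 23.5, 30.7, 12.02 and 19.98, a log2 change of −3.59, opposite in sign to *Defb6*. The other falls were the lactoperoxidase gene *Lpo* (−1.63) and *Prom1* (−0.69, and −0.50, not called, without WT-DES sample 1). *Prom1* encodes prominin-1, a membrane glycoprotein rather than a defence protein, although the list counts it. Of 7 mucin genes tested 5 passed through WT-DES alone, and the other 2, *Emcn* and *Muc20*, were higher. The highest level was that of *Emcn*, for endothelial endomucin, at 22.6 ± 1.7 and 41.7 ± 11.2. *Muc20* rose from 1.98 ± 0.11 to 12.7 ± 5.3 and *Muc1* from 0.482 ± 0.069 to 8.398 ± 4.1, and *Muc3* was listed at 0 in all samples.

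More developmental signalling genes were higher than lower. In the Wnt, the TGFβ and BMP and the FGF list alike, the share lower was below the 23.9% of all tested genes. Of 25 Wnt genes 13 were higher and 4 lower, with a median of 0.55. Secreted Wnt modulators moved apart: *Sfrp2* rose from 36.8 ± 1.0 to 89.3 ± 21.45 and *Dkk3* from 7.57 ± 0.95 to 61.4 ± 11.7, while *Wif1*, for Wnt inhibitory factor, was at 109, 104, 124 and 111 in WT-veh and 7.15, 6.12, 6.57 and 6.99 in WT-DES, which gave a log2 change of −3.87 ± 0.07 (SE, limma adjusted p = 8.26e-08). The receptor gene *Fzd1* rose from 23.05 ± 2.7 to 61.1 ± 12.7. The other falls were *Wnt6* (−1.04), *Wnt10a* (−1.09) and *Notum* (−1.10). *Wnt4*, a ligand gene of female tract development, was at 19.04, 17.9, 18.7 and 24.3 and 25.8, 23.03, 21.53 and 21.6 and was not called.

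Of 23 TGFβ and BMP genes 12 were higher (9 of the 20 above 1 FPKM in WT-veh) and 4 lower, and 15 and 1 with equal totals without the 20 most abundant genes. *Tgfbr2*, the type II receptor gene, was at 21.6, 21.2, 19.2 and 20.4 and 68.4, 69.5, 58.9 and 63.6 (log2 change 1.61). Among the *Id* genes, targets of BMP signalling, *Id3* went from 411 ± 41.7 to 203 ± 23.6 and *Id2* was not called. *Id1* changed by −0.72 as deposited and 0.04 under quantile normalization, and was not called without WT-DES sample 2, WT-veh sample 2 or WT-veh sample 4. The other falls were *Smad6* (−0.69) and *Bmpr1b* (−1.41). Of 14 FGF genes 10 were higher and 2 lower, the latter 1 without WT-DES sample 1. The receptor gene *Fgfr1* rose from 18.9 ± 1.2 to 48.4 ± 4.9 and *Spry1*, a feedback inhibitor, from 23.4 ± 4.1 to 41.1 ± 3.6, while *Fgfr2* was at 38.5 ± 5.3 and 53.5 ± 9.3 with a ratio under 1.5. *Fgf1* fell from 45.1 ± 2.6 to 19.7 ± 4.4 and *Etv4* had a log2 change of −0.65 that was −0.49 and not called without WT-DES sample 1. *Fgf10*, the mesenchymal ligand gene that SV branching requires, was at 4.17, 4.23, 4.01 and 3.68 and 3.82, 9.47, 14.02 and 9.43 (log2 change 0.91, limma adjusted p = 0.0245).

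Few cell division genes were called. Of 24 tested 5 were higher as deposited, a share below the 28.1% of all genes, with a median of 0.28, whereas 3 were lower under quantile normalization, where the 5 rises were lost, and 15 higher with equal totals without the 20 most abundant genes. The count was 3 in the 6 fits that left out WT-DES sample 2, 3 or 4 or WT-veh sample 1, 2 or 3, and 8 without WT-DES sample 1. *Ube2c* was at 25.8 ± 8.3 and 18.9 ± 4.2, *Mcm6* at 18.6 ± 3.2 and 21.1 ± 3.0, and *Pcna* at 20.9 ± 2.7 and 16.98 ± 0.97, none of them called. Of 17 immediate early genes 9 were higher and 2 lower. *Junb* rose from 45.2 ± 4.9 to 81.03 ± 22.3, *Jund* went from 121 ± 18.6 to 71.03 ± 3.9, *Ier2* was not called, and the other fall was *Atf3* (−1.26). Of 23 DNA methylation and Polycomb genes 4 were higher and 3 lower, with a median of 0.06, below the background share, and 11 were higher with equal totals without the 20 most abundant genes, where the falls were lost. *Rbbp7*, a histone-binding subunit gene, went from 172 ± 3.6 to 104 ± 2.9, and *Rbbp4* was at 50.3 ± 2.9 and 39.9 ± 1.4 and was not called.

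**Figure D4:**
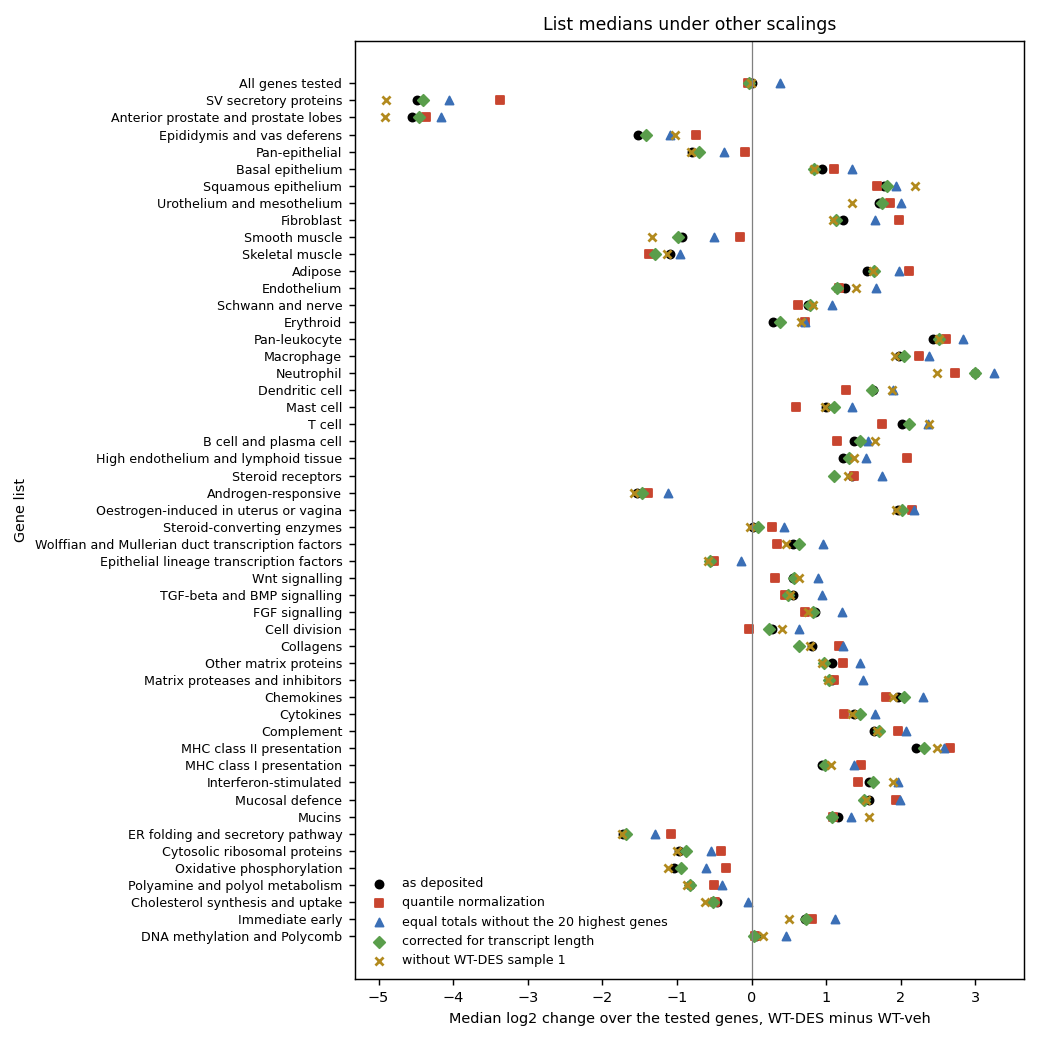
Median log2 change over the tested members of each list and over all tested genes, WT-DES minus WT-veh, as deposited (circles), after quantile normalization (squares), with equal totals without the 20 highest genes (triangles), after correction for transcript length (diamonds) and without WT-DES sample 1 (crosses). The medians of the secretory, immune and fibroblast lists keep their sign. All 10 B cell, 6 of 9 neutrophil and 6 of 11 T cell genes passed the minimum through WT-DES alone, which fixed the direction of their means. The medians of pan-epithelial, smooth muscle and ribosomal genes move towards 0 under quantile normalization, where cell division crosses it (0.28 to −0.04).

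The change with DES was set beside that in αERKO, which shares no sample with the WT comparison, and the difference between the 2 changes was tested in a fit of all 16 samples. This interaction was called, with the same threshold on p and a 1.5-fold difference on the log2 scale, for 8970 of the 15800 genes (56.8%). The 20 genes with the largest rises and falls were chosen for their change in WT, which the interaction contains, so for them the change in αERKO alone is given. Of the 20, 1 had a limma adjusted p of at most 0.05 in αERKO, and the other log2 changes there were −1.38 to 0.84. That gene was *Msmb*, which fell by 3.69 (limma adjusted p = 0.0435). *Sprr2f* changed by −1.38 with DES in αERKO (limma adjusted p = 0.133) and *Pbsn* by −0.08 (limma adjusted p = 0.95). *Pgr* changed by −0.03 in αERKO (limma adjusted p = 0.941).

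Across the lists, all 12 secretory genes, all 10 MHC class II genes, all 11 endothelial genes, all 11 androgen-responsive genes and all 29 ribosomal protein genes had an interaction, a description, since it contains the WT change that these lists already show. The SV secretory genes had a median change of −4.49 in WT and 0.30 in αERKO, and the neutrophil genes of 2.99 and −0.01. Of the 9 neutrophil genes 6 had passed the minimum through WT-DES alone. Of the 50 lists, those with the largest median change in αERKO were skeletal muscle (−3.91, against −1.09 in WT) and adipose (−2.99, against 1.55), and the part of attached tissue in these medians was not tested. In the cell division list 4 of 24 genes had an interaction and in the DNA methylation and Polycomb list 10 of 23, both below the 56.8% of all genes.

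**Figure D5:**
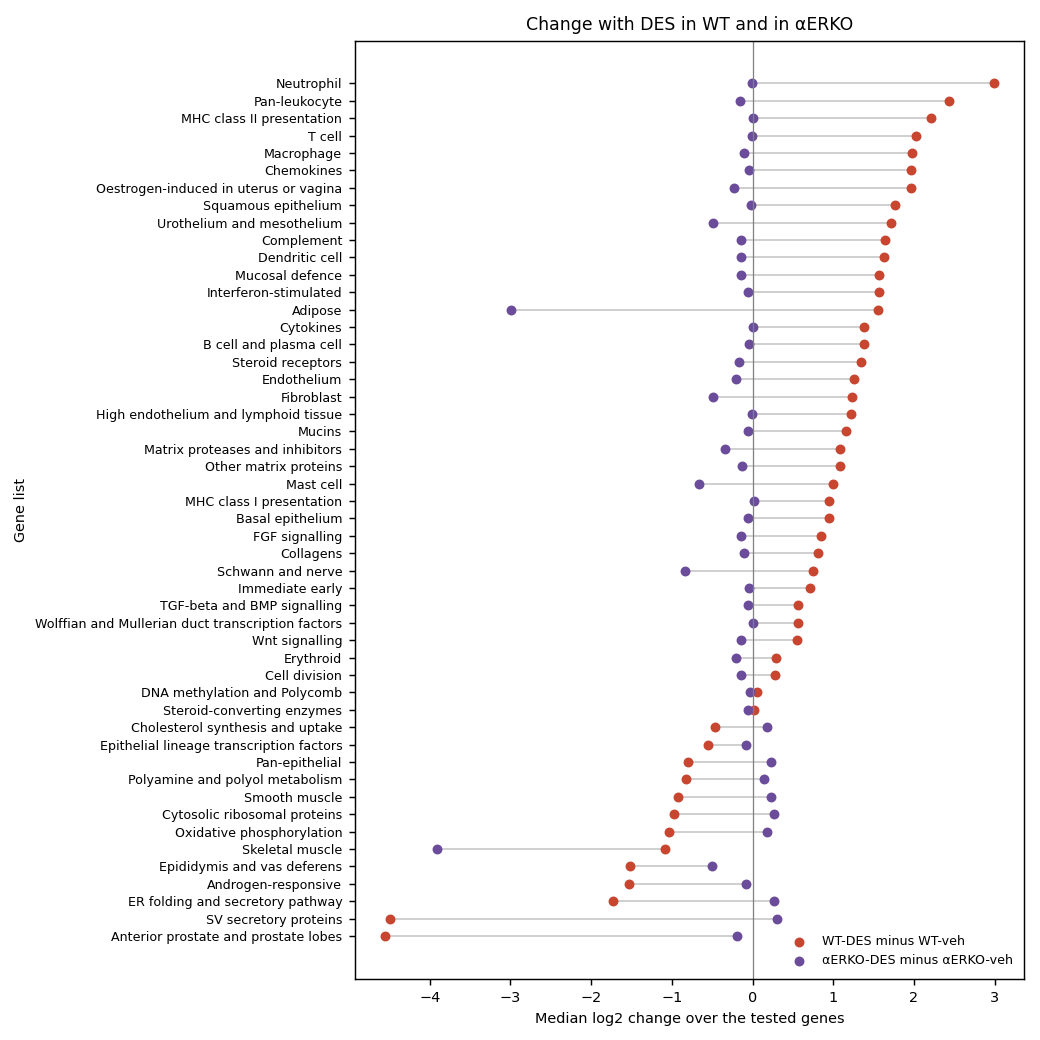
Median log2 change with DES over the tested members of 50 lists in WT (red) and in αERKO (purple), joined by a line and ordered by the WT median. In αERKO the medians lie between −0.84 and 0.30 apart from those of adipose (−2.99) and skeletal muscle (−3.91) genes.

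The change with DES also went with transcript length. Over 14864 genes, Spearman's rho between the length of the longest GENCODE M21 transcript and log2(FPKM + 1) centred on the 8 samples had a mean of −0.238 over the WT-veh samples and 0.258 over the WT-DES samples. The same means for GC content were 0.1 and −0.101. Both are descriptions of centred values, in which the groups mirror each other. Higher DEGs had a median length of 3788.5 nt and lower DEGs of 2351 nt, against 3249 nt overall. A fit of the genes with a length alone gave 4219 higher and 3485 lower, and with a correction of every sample for its length trend the counts were 3905 and 3483. The list medians of secretory, neutrophil and ribosomal genes were −4.41, 2.99 and −0.88 with the correction, against −4.49, 2.99 and −0.97 without it.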

How the data were processed

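RNA-seq of seminal vesicles at week 5 was read from 1 expression table of 16 samples, 4 given vehicle and 4 given DES of each genotype. The authors made its FPKM values per gene on mm10 and, by the submitters' processing notes, with TopHat2 2.0.4 and Cufflinks 2.0.2, and how strand was handled is not given in the sources used here. Depth cannot be recovered from FPKM. Genes whose mean FPKM exceeded 1 in either WT group were tested with limma 3.58.1 (variance trend) on log2(FPKM + 1) in the 8 WT samples, with Benjamini-Hochberg adjustment. The difference from αERKO was an interaction term in all 16 samples. Steps were tested on simulated data. Members and lists were chosen with earlier results of these data known. The 10 highest and 10 lowest log2 changes were named among DEGs of mean FPKM 10 or more without overlap, then *Esr1*, *Esr2* and *Pgr*, and in each list 2 to 4 members with the highest FPKM and members listed at 0 in all samples of a group. Some genes are not reported here and stand in no list. Alternatives covered the pseudocount, minimum, samples fitted, spread, scaling, length, GC content, thresholds and left-out samples. Coordinates are GENCODE M21 on GRCm38. A RefSeq promoter matched 73.3% of the tested genes, fewer than 80%, so the motif was not compared between DEGs and other genes.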

Additional observations from a re-analysis of the deposited data

Results flagged for a closer look

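A value was singled out when the gap between it and the nearest of the other 3 samples of its group, divided by the range of the group, was above Dixon's critical value for 4 samples. Of 146 values tested (the 23 named genes and the 50 list means in each group) 7 were above it, and chance gives about 1 in 20. In WT-DES sample 1, *S100a9* was at 415 FPKM against 41.4 to 97.4 in the other WT-DES samples, *S100a8* at 371 against 44.7 to 85.5 and *Ivl* at 181 against 25.9 to 32.3. The mean log2(FPKM + 1) of the TGFβ and BMP genes was 4.38 in that sample against 4.10 to 4.13. In WT-veh sample 1 the mean was 1.23 for dendritic cell genes against 0.99 to 1.03 in the other WT-veh samples and 1.17 for T cell genes against 0.79 to 0.84. In WT-veh sample 3 it was 4.76 for collagen genes against 5.01 to 5.05. The change with DES differed between WT and αERKO by the interaction test (limma on all 16 samples) in 8970 of the 15800 genes tested (56.8%).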

How the results depend on the processing

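The number of DEGs was 7804 to 8638 when each of the 8 samples was left out in turn, with 4160 to 4642 higher and 3644 to 3996 lower. A 2-fold minimum gave 5229 DEGs, 1959 of them lower. A minimum FPKM above 5 gave 2877 higher and 3398 lower. Equal totals without the 20 most abundant genes gave 6764 higher and 1804 lower, that is 78.9% higher against 54.0% as deposited, and shared 6249 calls with the fit as deposited. Quantile normalization gave 3485 higher and 3809 lower, 5817 of them shared and 6 opposite. Among the 203 genes followed across the alternatives, the sign turned under it for *Atp5b* (0.02), *Hsd17b10* (0.04), *Id1* (0.04), *Rpl8* (0.28), *Rps9* (0.57), *Sparc* (1.07) and *Tagln* (0.01), and the cause was not tested. With a minimum FPKM above 5 the number of members higher went from 10 to 2 for B cell and plasma cell genes and from 13 to 7 for cytokine genes. It went from 7 to 4 for dendritic cell genes and for mucins, 5 to 3 for nerve genes and 6 to 3 for high endothelium. Fewer members were tested at that minimum. A 2-fold minimum left 12 ribosomal, 14 oxidative phosphorylation, 3 pan-epithelial, 5 polyamine and polyol and 2 TGFβ and BMP genes lower, and 7 endothelial, 7 TGFβ and BMP and 3 duct transcription factor genes higher. The fit with a replicate block called 8107 genes, although same-numbered samples did not deviate together (correlations of −0.015, −0.007, 0.010 and 0.077), so the samples share only a number. Of those 203 genes 112 kept their direction and side of the threshold in all, and 48 lost their call in at least 1. With FPKM alone, the precision that depth would give to genes of low level is unknown.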
